A study of Mus musculus with 12 samples.

Results

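The 9 genes described here encode the classical granule proteins of neutrophils and the abundant cytosolic proteins S100A8 and S100A9, and they were chosen by symbol: Mpo, Elane, Prtn3, Ctsg, Ltf, Camp, Ngp, S100a8 and S100a9. The array carried 1 probe set for each of the 9, out of 12393 genes with a probe set of their own and 22626 non-control probe sets. Spleen RNA of 12 mice was hybridised to Affymetrix MOE430A 2.0 arrays, 1 mouse per array, in 4 groups of 3. The groups were Dusp1-/- mice 6 h after intraperitoneal E. coli lipopolysaccharide (LPS, a cell wall component of Gram-negative bacteria) at 10 µg per g body weight, Dusp1+/+ mice given the same LPS, untreated Dusp1-/- mice (knockout controls) and untreated Dusp1+/+ mice (wild-type controls). The controls are labelled as untreated, not as injected with vehicle, so an injection effect and an LPS effect cannot be told apart. Strain, age, sex and the design of the Dusp1 allele are not given in the sources used here, and nothing but the Dusp1 genotype and LPS is said to differ. The product of Dusp1 is a phosphatase of MAP kinases, and the series is about its control of the response to LPS.

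Neutrophils build their granules in waves while they mature. Promyelocytes make the primary (azurophil) granule enzymes, which are myeloperoxidase and the serine proteases. Myelocytes then make the specific granule proteins such as lactoferrin and the cathelicidin precursor. S100A8 and S100A9, which pair to form calprotectin, fill the cytosol and stay high into the mature cell. The messages for the primary granule enzymes are largely lost by the time a neutrophil leaves the marrow, so in bulk tissue they mark precursors more than circulating cells. The mouse spleen keeps some blood cell formation, mainly of red cells and granulocytes, into adult life. In bulk RNA, fewer cells of a type and less message per cell cannot be told apart.

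None of the 9 genes passed the test for LPS in either genotype. The highest and the next highest value of all 9 genes lay in the same pair of untreated spleens, knockout control 1 and wild-type control 2. In knockout control 1 the 9 genes were 1.88 to 9.23 times the geometric mean of the other 2 knockout controls (median 4.54), and 8 of the 9 were over 2-fold, as were 5.99% of all probe sets. In wild-type control 2 they were 2.68 to 5.83 times the other 2 wild-type controls (median 4.20), and 9 of 9 were over 2-fold, as were 5.34% of all probe sets. These ratios describe 2 single mice and have no test. Because they lie in the control groups, the LPS differences of the 9 genes and the counts of the gene lists are also given without them. These 2 arrays were picked on the values of the 9 genes. Leaving them out therefore raises the LPS differences of these genes and narrows their intervals by construction.

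Facts of the whole series that touch these genes are few. Array medians ran from 47 to 63 over the 12 arrays and the values from 6 to 15228, with 30.84% of all values under 20, and the lowest value of any of the 9 genes was 28. Within groups the arrays correlated at 0.965 to 0.989 (knockout LPS), 0.963 to 0.986 (wild-type LPS), 0.909 to 0.950 (knockout controls) and 0.938 to 0.961 (wild-type controls), taken across probe sets and not across independent replicates. Dusp1 read 4963, 2948 and 4996 in knockout LPS arrays against 2248, 2142 and 2116 in wild-type LPS arrays, and 677, 1528 and 1443 in knockout controls against 479, 1354 and 627 in wild-type controls. The part of the gene that is altered is not stated in the sources used here, so this signal does not check the labels, and each genotype direction rests on them. For Xist the values were 35 and 47 in mice 2 and 3 of the wild-type control group, and 1101 to 3949 elsewhere. The Y-linked Eif2s3y gave 316 and 53 there and 7 to 10 elsewhere. Those 2 mice had the pattern of males, and all other mice, knockout control 1 among them, that of females. Sex therefore cannot be told apart from LPS in wild-type spleen or from genotype in controls. The same limit holds for the averaged LPS response and for the difference of responses between genotypes.

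Myeloperoxidase (Mpo) turns hydrogen peroxide into hypochlorous acid. Mpo read 40, 109 and 44 in knockout LPS arrays, against 357, 105 and 57 in knockout controls. In wild-type spleen it read 35, 75 and 91 after LPS, against 105, 575 and 140 in controls. The groups overlapped in knockout spleen, and every wild-type LPS array lay below every wild-type control. Mpo was the only one of the 9 genes whose groups did not overlap in this comparison, where 22.2% of all probe sets did not overlap and 12.6% were lower without overlap. In the other comparisons of 2 groups 0 of 9 genes lay apart, against 26.2% of all probe sets for LPS in knockout spleen, 16.8% for the genotypes after LPS and 2.46% for the genotypes in controls. Its difference after LPS was -1.72 ± 0.77 on the log2 scale in wild-type spleen (± is limma's standard error, n = 3 mice a group, limma adjusted p = 0.265) and -1.16 ± 0.77 in knockout spleen (limma adjusted p = 0.412). Averaged over the genotypes it was -1.44 ± 0.55, lower after LPS in both genotypes, with a limma adjusted p of 0.0952, and 0.0442 to 0.197 over 21 alternatives. Without the pair of high control arrays the differences were -0.42 ± 0.54 in knockout and -0.97 ± 0.54 in wild-type spleen, and the average was -0.70 ± 0.38 (limma adjusted p from 0.268 to 0.689).

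Elane, Prtn3 and Ctsg encode neutrophil elastase, proteinase 3 and cathepsin G, the serine proteases stored beside myeloperoxidase. Elane read 47, 85 and 57 in knockout LPS arrays against 276, 88 and 42 in knockout controls, and 46, 74 and 57 in wild-type LPS arrays against 56, 274 and 76 in wild-type controls. Prtn3 read 28, 89 and 53 in knockout LPS arrays against 214, 98 and 51 in knockout controls, and 39, 66 and 63 in wild-type LPS arrays against 52, 357 and 72 in wild-type controls. In both genes 1 control array per genotype was high and the other controls lay within or beside the LPS values. Ctsg read 45, 59 and 49 in knockout LPS arrays against 146, 54 and 50 in knockout controls, and 45, 63 and 81 in wild-type LPS arrays against 60, 316 and 55 in wild-type controls. All 3 proteases overlapped between LPS and control arrays in both genotypes. Their differences after LPS ran from -1.01 ± 0.73 (Prtn3) to -0.53 ± 0.62 (Ctsg) in knockout spleen and from -1.01 ± 0.73 (Prtn3) to -0.73 ± 0.62 (Ctsg) in wild-type spleen, and none passed (limma adjusted p from 0.461 to 0.678 and from 0.547 to 0.636). Without the 2 high arrays they lay nearer 0, from -0.47 ± 0.49 (Prtn3) to 0.01 ± 0.38 (Elane) in knockout spleen and from -0.17 ± 0.38 (Elane) to 0.09 ± 0.25 (Ctsg) in wild-type spleen. In the LPS arrays the proteases stood at the 39.5th to 60.6th percentile of their array. Their signal there was thus about that of the median probe set, which limits what a fall could show.

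**Figure D1:**
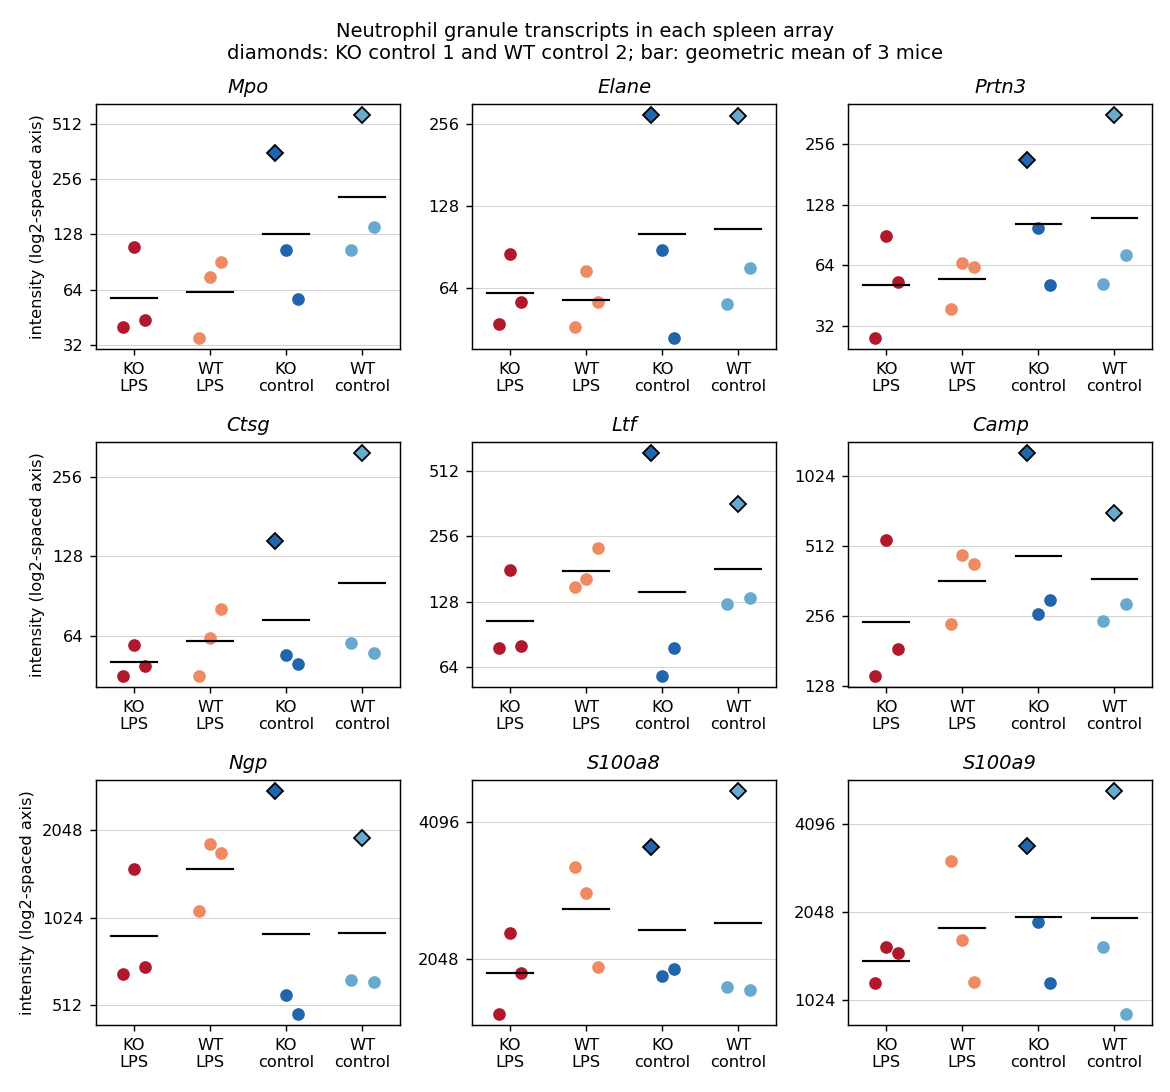
Intensity of each granule gene (y axis, spaced by log2) in each array, by group of 3 mice (x axis), with a bar at the geometric mean. Diamonds mark knockout control 1 and wild-type control 2, which hold the highest and next highest value in all 9 panels.

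The 4 primary granule genes are the largest class here, and a pair of them are neighbours in the genome, so the sequences in front of them are shown. Each is the 250 bases before the annotated start on mouse build GRCm38.p6, from RefSeq: chr11:87793534-87793783 on the plus strand for Mpo, chr10:79886062-79886311 on the plus strand for Elane, chr10:79879417-79879666 on the plus strand for Prtn3 and chr14:56102575-56102824 on the minus strand for Ctsg. Prtn3 and Elane are direct neighbours in the annotation, with 0 genes between them, as are S100a8 and S100a9. Capitals mark GAGGAA, the core to which PU.1, a transcription factor of myeloid cells, is known to bind.
Mpo: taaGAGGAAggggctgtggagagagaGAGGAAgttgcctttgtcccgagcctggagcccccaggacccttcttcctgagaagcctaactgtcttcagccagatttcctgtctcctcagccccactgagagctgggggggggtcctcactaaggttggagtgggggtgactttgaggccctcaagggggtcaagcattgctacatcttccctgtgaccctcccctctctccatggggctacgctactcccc
Elane: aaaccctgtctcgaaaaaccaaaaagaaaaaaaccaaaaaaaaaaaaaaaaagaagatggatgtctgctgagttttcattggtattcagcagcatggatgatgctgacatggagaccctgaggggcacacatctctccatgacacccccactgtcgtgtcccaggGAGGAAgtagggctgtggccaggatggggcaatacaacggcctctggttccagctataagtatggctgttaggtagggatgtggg
Prtn3: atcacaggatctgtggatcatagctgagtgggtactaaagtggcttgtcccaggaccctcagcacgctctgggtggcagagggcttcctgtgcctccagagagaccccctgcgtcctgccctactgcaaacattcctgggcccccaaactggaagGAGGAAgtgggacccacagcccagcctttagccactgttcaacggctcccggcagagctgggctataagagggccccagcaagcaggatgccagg
Ctsg: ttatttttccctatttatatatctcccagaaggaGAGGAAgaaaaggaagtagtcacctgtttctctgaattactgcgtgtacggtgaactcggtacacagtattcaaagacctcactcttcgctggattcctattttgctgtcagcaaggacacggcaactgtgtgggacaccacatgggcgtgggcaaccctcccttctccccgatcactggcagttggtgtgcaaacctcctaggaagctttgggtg

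GAGGAA, read on both strands, stood in all 4 of these sequences, 2 times in Mpo and 1 time in each of the others, and in 6 of the 9 genes (the 4 above, Ltf and S100a8). It stood in 23.3% of the 32851 promoter windows of the same length in the RefSeq table. The C/EBP-type word TTNNGNAA stood in 0 of the 4 primary granule genes and in Ltf, Ngp, S100a8 and S100a9, against 36.8% of all windows. The Runx core TGTGGT stood in Ctsg and S100a9 (14.0% of all windows), the NF-kB-type motif in Ltf, Mpo and Prtn3 (45.8%), TATAAA in Ctsg and S100a8 (12.4%), and the Myb core AACNG in 9 of 9 (74.2%). Matches of different words may overlap. A match describes the letters and is not a measured binding site.

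Ltf, Camp and Ngp encode lactoferrin, which binds iron, the cathelicidin precursor, which is cut to an antimicrobial peptide, and neutrophilic granule protein, a relative of cathelicidins. Ltf read 78, 179 and 80 in knockout LPS arrays against 621, 58 and 78 in knockout controls, and 149, 163 and 227 in wild-type LPS arrays against 125, 361 and 133 in wild-type controls. Camp read 141, 542 and 184 in knockout LPS arrays against 1291, 261 and 301 in knockout controls, and 236, 471 and 430 in wild-type LPS arrays against 244, 711 and 288 in wild-type controls. Within the knockout LPS group, mouse 2 was the highest for Ltf and Camp, as for the other 7 genes. Their differences after LPS were -0.44 ± 0.78 and -0.95 ± 0.69 in knockout spleen and -0.04 ± 0.78 and -0.02 ± 0.69 in wild-type spleen, none past the threshold (limma adjusted p from 0.458 to 1.00). Of these 4 estimates 3 were positive without the 2 high control arrays, with Ltf at 0.63 ± 0.37 in knockout and 0.45 ± 0.37 in wild-type spleen and Camp at -0.22 ± 0.53 and 0.45 ± 0.53, and none passed (limma adjusted p from 0.340 to 0.858).

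Ngp read 656, 1512 and 693 in knockout LPS arrays against 2795, 552 and 475 in knockout controls. In wild-type spleen Ngp read 1079, 1846 and 1718 after LPS against 626, 1923 and 616 in controls. All 6 LPS arrays lay above 4 of the 6 controls (656 to 1846 against 475 to 626) and below both high controls. Ngp was the only one of the 9 genes for which the LPS arrays lay apart from those 4 controls. Those 4 are what remained after the arrays highest for these genes were set aside, so the separation is a description and no test. The share of all probe sets apart in this way was not computed. With all arrays its difference was -0.03 ± 0.67 in knockout spleen (limma adjusted p = 0.995) and 0.74 ± 0.67 in wild-type spleen (limma adjusted p = 0.667). Without the 2 high control arrays it was 0.79 ± 0.38 (limma adjusted p = 0.231) and 1.28 ± 0.38 (limma adjusted p = 0.0991), and the average over genotypes was 1.03 ± 0.27 and passed (limma adjusted p = 0.0278). With all 12 arrays that average was 0.35 ± 0.48 (limma adjusted p = 0.685). In the fit without those arrays, which was chosen after seeing the data, 18.4% of all probe sets passed in either direction and 6.70% were higher, and Ngp was 1 call among 9 genes.

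S100A8 and S100A9 bind calcium and zinc, and the released pair is a ligand of Toll-like receptor 4. S100a8 read 1554, 2338 and 1916 in knockout LPS arrays against 3611, 1885 and 1955 in knockout controls, and 3269, 2868 and 1968 in wild-type LPS arrays against 1782, 4777 and 1753 in wild-type controls. S100a9 read 1173, 1555 and 1483 in knockout LPS arrays against 3422, 1890 and 1167 in knockout controls, and 3042, 1636 and 1176 in wild-type LPS arrays against 1548, 5275 and 916 in wild-type controls. The groups overlapped for both genes in both genotypes. The difference after LPS was -0.31 ± 0.40 (S100a8) and -0.49 ± 0.60 (S100a9) in knockout spleen and 0.10 ± 0.40 and -0.12 ± 0.60 in wild-type spleen, none past the threshold (limma adjusted p from 0.697 to 0.953). Leaving out the 2 high control arrays gave differences of -0.01 ± 0.25 (S100a8) and -0.09 ± 0.41 (S100a9) in knockout spleen and 0.58 ± 0.25 and 0.60 ± 0.41 in wild-type spleen, and none passed (limma adjusted p from 0.268 to 0.992). The 95% interval for S100a8 in wild-type spleen ran from -0.79 to 0.99 with all arrays and from 0 to 1.16 without those 2. A rise of 2-fold (1 on the log2 scale) lay just outside the first interval and inside the second.

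Over the 9 genes, 0 passed in knockout spleen after LPS (limma at an adjusted p under 0.05), where 12.7% of all probe sets passed, and 0 passed in wild-type spleen, where 6.59% did. By limma's unadjusted p under 0.05 the counts were 0 and 1, the 1 being Mpo, against 25.1% and 18.7% of all probe sets. In knockout spleen 9 of 9 estimates were negative, with a median of -0.53 against -0.05 over all probe sets, and in wild-type spleen 7 of 9, with a median of -0.12 against -0.02. These signs depend on the scaling: with arrays shifted to 1 common median, which moves the median of all probe sets to 0.17 and 0.10, the negative estimates were 8 of 9 and 4 of 9, and with cyclic loess 9 and 5. Averaged over genotypes 0 of 9 passed, against 19.8% of all probe sets, with a median of -0.49, and 1 gene, Mpo, had an unadjusted p under 0.05, against 31.1% of all probe sets. Without the 2 high control arrays 6 of 9 estimates were negative in knockout spleen (median -0.04) and 3 of 9 in wild-type spleen (median 0.45). In that fit 0 of 9 passed in either genotype, against 12.4% of all probe sets in knockout and 5.12% in wild-type spleen, and 0 and 2 (Ngp and S100a8) had an unadjusted p under 0.05, against 26.3% and 18.3%. All intervals were wide: over the 9 genes the lowest bound was -2.87 in knockout and -3.43 in wild-type spleen, and the highest 1.46 and 2.22. These intervals include several-fold changes for single genes, so the missing calls do not show that the genes did not respond.

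**Figure D2:**
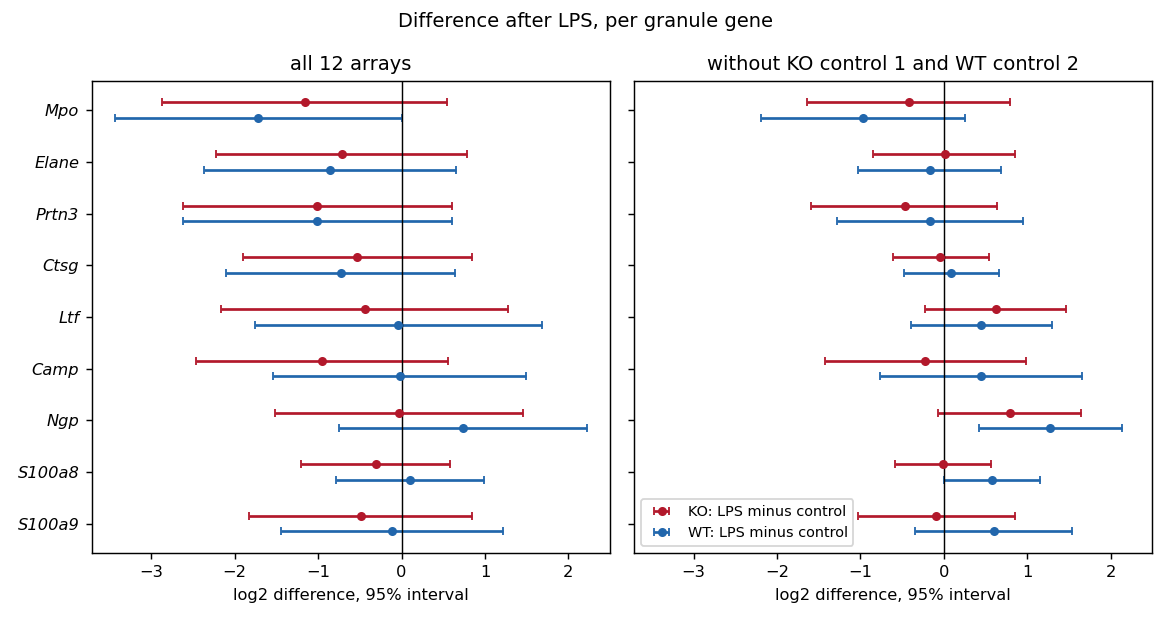
Difference between LPS and control arrays on the log2 scale (x axis) for each granule gene, in knockout and wild-type spleen, with 95% intervals from limma. Left, all 12 arrays: 16 of 18 estimates are negative and none passed. Right, without knockout control 1 and wild-type control 2: the estimates move to the right and the intervals narrow. Both follow from leaving out the control arrays that are highest for these genes. The interval of Ngp in wild-type spleen lies above 0 there, with a limma adjusted p of 0.0991.

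Between genotypes no granule gene passed either. After LPS 0 of 9 passed (knockout against wild-type, limma, adjusted p from 0.880 to 1.00, 0 with an unadjusted p under 0.05), where 0.318% of all probe sets did and 8.84% had an unadjusted p under 0.05. Of the 9 estimates 8 were lower in knockout spleen, with a median of -0.37 against 0.02 over all probe sets. The lowest were Ngp (-0.77 ± 0.67) and Ltf (-0.77 ± 0.78), and Elane (0.08 ± 0.68) was the only positive one. In controls 0 of 9 passed (limma adjusted p = 1.00 for each, 0 with an unadjusted p under 0.05), nor did any probe set (0%, with 337 of 22626 at an unadjusted p under 0.05). The differences there ran from -0.66 ± 0.77 for Mpo to 0.34 ± 0.69 for Camp. Without the pair of high arrays, 0 of 9 passed between genotypes after LPS (limma adjusted p from 0.484), against 0.234% of all probe sets. Ltf and Ngp had an unadjusted p of 0.0466 and 0.0490, against 10.1% of all probe sets under 0.05. Neither high array enters this difference, so both genes stayed at -0.77. Only their standard errors fell, to 0.33 and 0.34, as the high arrays left the pooled spread. In controls 0 of 9 passed (limma adjusted p from 0.989), against 0% of all probe sets. Ltf had an unadjusted p of 0.0468 there, against 2.59% of all probe sets under 0.05. The difference between the LPS responses of the genotypes passed for 0 of 9 (limma adjusted p = 1.00 for each, 0 with an unadjusted p under 0.05) and for 0% of all probe sets (1230 at an unadjusted p under 0.05), with estimates from -0.93 ± 0.97 (Camp) to 0.56 ± 1.10 (Mpo).

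Neighbouring group levels of a gene lay within the spread between mice. This spread is the SD of single mice, not the error of a mean, and groups that are not neighbours were not compared in this way. Over the 9 genes, all 27 steps between neighbouring group means were smaller than the larger SD of the 2 groups. For Mpo the log2 means were 5.85 ± 0.80 in knockout LPS, 5.96 ± 0.73 in wild-type LPS, 7.01 ± 1.35 in knockout control and 7.67 ± 1.31 in wild-type control spleens (SD, n = 3 each). For Ngp they were 9.79 ± 0.67, 10.56 ± 0.42, 9.82 ± 1.42 and 9.82 ± 0.94 in the same groups. The control SD was above the LPS SD in both genotypes for all 9 genes. The SD within groups, pooled by the fit, was 1.09 for Mpo and Ltf, 1.02 for Prtn3, 0.96 for Elane and Camp, 0.94 for Ngp, 0.86 for Ctsg, 0.84 for S100a9 and 0.55 for S100a8. For 8 of the 9 this was above that of 94.7% or more of all probe sets, and S100a8 stood at 80.2%.

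Members of a granule class varied together over the 12 arrays, as a description that the 2 high arrays dominate. Pearson's r between log2 intensities was 0.89 to 0.96 for the 6 pairs of primary granule genes, 0.83 to 0.90 for the 3 pairs of specific granule genes and 0.91 for S100a8 with S100a9. Over the 10 arrays without the high pair it was 0.38 to 0.86, 0.68 to 0.83 and 0.74. Between primary granule genes and the S100 genes r was 0.58 to 0.76 over 12 arrays and -0.39 to 0.08 over 10. Between primary and specific granule genes it was 0.55 to 0.83 and 0.07 to 0.72. So over the 10 arrays the primary granule and the S100 genes showed no common order.

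The same 2 spleens were rich in messages of red cell precursors and dividing cells. Of 19 measured red cell precursor genes, 18 were over 2-fold in knockout control 1 against the other 2 knockout controls (median 23.0-fold) and 18 in wild-type control 2 against the other 2 wild-type controls (median 3.73-fold). Klf1, the transcription factor of red cell genes, read 3923 and 1389 in those 2 arrays and 29 to 434 in the others. Rhag, a part of the Rh complex of the red cell membrane, read 1128 and 545 against 11 to 237. Of 23 cell cycle genes, 23 were over 2-fold in knockout control 1 and 9 in wild-type control 2. The summed intensity of the red cell list was 7399 to 9778 in knockout LPS, 4473 to 9048 in wild-type LPS, 2273 to 55889 in knockout control and 5582 to 27427 in wild-type control spleens. Of its genes 0 of 19 passed after LPS in each genotype, with medians of -0.64 in knockout and -1.11 in wild-type spleen, and without the 2 high arrays 2 rose in knockout spleen (median 0.89) and 0 in wild-type spleen (median -0.51). Its part in the results on the granule genes was not tested.

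**Figure D3:**
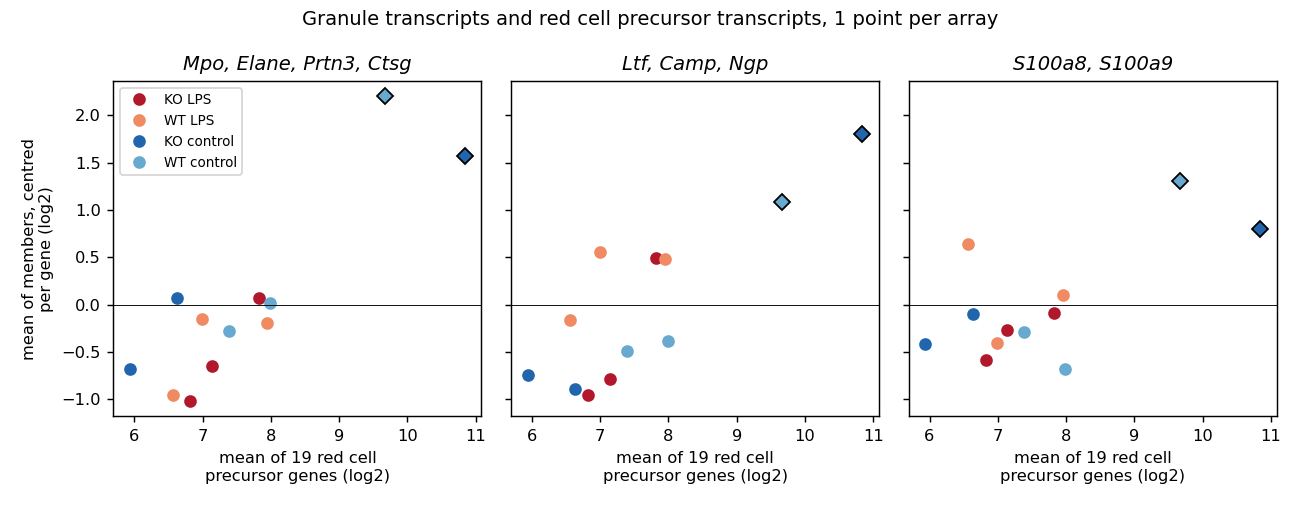
Mean of 19 red cell precursor genes on the log2 scale (x axis) against the mean of the granule genes of each class, centred per gene (y axis, log2), 1 point per array. Knockout control 1 and wild-type control 2 (diamonds) lie at the upper right in the 3 panels, and in the S100 panel the other 10 arrays show no common slope (r = -0.10).

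The mean of the 4 primary granule genes had r = 0.87 with the mean of the red cell list over 12 arrays and 0.57 over 10. For the specific granule genes the values were 0.85 and 0.52, and for the S100 genes 0.65 and -0.10. With the mean of the cell cycle list, r was 0.86 and 0.65 for the primary granule genes. It was 0.79 and 0.24 for the specific granule genes, and 0.66 and -0.02 for the S100 genes. Of 13 pancreas genes 12 were over 2-fold in knockout control 1 and 0 in wild-type control 2, where 12 were under 0.5-fold. Of 14 liver genes 13 were over 2-fold in wild-type control 2, and 14 were under 0.5-fold in knockout control 1. These counts depend on the other controls of each group. Summed pancreas intensity was 86480 in wild-type control 1, against 41871 in knockout control 1 and 808 in wild-type control 2. Summed liver intensity was 4485 in wild-type control 2, against 356 in wild-type control 1 and 18540 in knockout control 2. Of 26 other neutrophil granule genes 4 were over 2-fold and 7 under 0.5-fold in knockout control 1 (median 0.862-fold). In wild-type control 2, 8 of them were over 2-fold and 0 under 0.5-fold (median 1.38-fold). In knockout control 1 and wild-type control 2, monocyte and macrophage markers had 1 and 3 of 19 over 2-fold. Lung markers had 0 and 1 of 9, and granule genes of eosinophils, basophils and mast cells 1 and 1 of 13. The eosinophil peroxidase gene Epx read 14 to 27 and the mast cell protease gene Cpa3 9 to 14 over all arrays, near the floor. Of 17 regulators and precursor genes 1 was over 2-fold and 4 were under 0.5-fold in knockout control 1 (median 0.732-fold), and 2 and 0 in wild-type control 2 (median 1.01-fold). Within that list, looked up after the values were seen, the members differed. Ms4a3, a gene of granulocyte precursors, read 44 and 84 in the 2 high arrays and 19 to 28 in the other 10. Myb, a transcription factor of blood cell precursors, read 277 and 298 against 41 to 212, while the stem cell marker gene Cd34 read 38 and 66 against 37 to 114, the growth factor receptor gene Kit 100 and 127 against 83 to 164, and Gfi1 16 and 29 against 31 to 87.

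Of 3014 genes outside the 9 with a mean above the 40th percentile and a range of at least 2 on the log2 scale, those most like the primary granule mean by Pearson's r over 12 arrays were Rrm2 (0.918), a subunit of the enzyme that makes DNA building blocks, the water channel gene Aqp1 (0.904), Epb42 (0.897) of the red cell membrane skeleton, the phospholipid transporter gene Abcb4 (0.896) and the Rh antigen gene Rhd (0.894). Over 10 arrays their r was 0.755, 0.764, 0.341, 0.757 and 0.674 in that order. The specific granule mean was most like the glycine transporter gene Slc6a9 (0.893, and 0.854 over 10 arrays), Rhag (0.893 and 0.719), and the red cell genes Gata1 (0.890 and 0.724), Ermap (0.874 and 0.624) and Klf1 (0.863 and 0.627). The S100 mean was most like Lysmd3 (0.845 and 0.584), the neutrophil collagenase gene Mmp8 (0.805 and 0.828), the chitinase-like gene Chil3 (0.805 and 0.539), Dcun1d1 (0.800 and 0.589) and Scoc (0.800 and 0.610). Taken alone, S100a8 was most like Cd177 (0.864, and 0.757 over 10 arrays), a surface protein gene of neutrophils. Chil3 (0.810 and 0.567), Mmp8 (0.797 and 0.789), Chac2 (0.765 and 0.508) and Nfe2 (0.758 and 0.489) followed. Nfe2 was also among the 5 genes most like Prtn3 and most like Camp. In this ranking the granule classes had red cell and DNA synthesis genes at the top, and the S100 mean and S100a8 had other neutrophil genes among theirs. S100a9 alone was most like Lysmd3 (0.891), Dcun1d1 (0.850), Scoc (0.833), Haus6 (0.831) and Smc2 (0.823).

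A minority of the other neutrophil granule genes passed the test for LPS. Of 26 measured, 4 rose and 1 fell in knockout spleen and 3 rose and 0 fell in wild-type spleen, with medians of 0.03 and 0.17, and without the 2 high arrays the counts were the same. Over all probe sets 5.13% rose and 7.55% fell in knockout spleen, and 3.39% rose and 3.2% fell in wild-type spleen. Averaged over genotypes 5 of the 26 rose and 3 fell, where 19.8% of all probe sets passed in either direction. Lcn2 encodes lipocalin 2, which captures bacterial iron carriers and is stored in specific granules beside lactoferrin. Lcn2 read 3210, 3594 and 2874 in knockout LPS arrays against 531, 272 and 184 in knockout controls, and 3472, 4595 and 2824 in wild-type LPS arrays against 98, 487 and 129 in wild-type controls. It rose by 3.43 ± 0.55 in knockout spleen (limma adjusted p = 0.00270) and 4.28 ± 0.55 in wild-type spleen (limma adjusted p = 0.00139), with no overlap between groups, while Ltf, Camp and Ngp did not pass. Many cell types besides neutrophils can make Lcn2. Ptx3, the long pentraxin gene, rose by 4.11 ± 0.34 and 1.74 ± 0.34 (limma adjusted p = 5.52e-05 and 0.0123) and was the only one of the 26 to pass between genotypes after LPS (2.36 ± 0.34, limma adjusted p = 0.0207). Ptx3 did not pass in wild-type spleen without the 2 high arrays, and in the controls it read 8 to 16, near the floor. Cybb, the catalytic subunit of the phagocyte oxidase, rose by 2.12 ± 0.35 in knockout and 1.41 ± 0.35 in wild-type spleen (limma adjusted p = 0.00300 and 0.0362). Srgn, the proteoglycan that packs granules, rose (1.02 ± 0.17) and the peptidase gene Dpp7 fell (-1.45 ± 0.39) in knockout spleen (limma adjusted p = 0.00320 and 0.0342).

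Of 19 genes of mature neutrophils, 7 rose and 0 fell in knockout spleen and 5 rose and 0 fell in wild-type spleen, with medians of 0.60 and 0.63. The shares of all probe sets that rose and fell were 5.13% and 7.55% in knockout spleen, and 3.39% and 3.2% in wild-type spleen. Averaged over genotypes 7 of the 19 rose and 2 fell, where 19.8% of all probe sets passed in either direction. Without the 2 high arrays 6 rose and 1 fell in knockout spleen (median 0.19) and 5 rose and 0 fell in wild-type spleen (median 0.79). In knockout spleen these were led by Cxcl2 (6.81 ± 0.45), the interleukin 1 receptor antagonist gene Il1rn (5.41 ± 0.35), the formyl peptide receptor gene Fpr2 (2.68 ± 0.44) and the decoy receptor gene Il1r2 (2.52 ± 0.52). In wild-type spleen the same 4 led, at 5.30 ± 0.45, 4.78 ± 0.35, 3.53 ± 0.44 and 2.03 ± 0.52 (limma adjusted p from 1.57e-05 to 0.0427 over the 8). Macrophages and other cells also express these genes. Csf3r and Cxcr2, receptor genes of this list that were named whatever their result, gave no call. Csf3r, the G-CSF receptor gene, differed by -0.33 ± 0.50 in knockout and -0.27 ± 0.50 in wild-type spleen. Cxcr2 differed by 0.05 ± 0.18 and -0.35 ± 0.18 (limma adjusted p from 0.348 to 0.918 for both genes). Ly6g, written in the same list, had no probe set matched. Cxcr2 (20 to 35) and Padi4 (12 to 15) were near the floor in all arrays. Csf3r read 200 in knockout control 1 and 877 in wild-type control 2, against 152 to 359 elsewhere, so of those mice only wild-type control 2 was high for it. Over the 19 genes 1 was over 2-fold and 5 were under 0.5-fold in knockout control 1 (median 0.777-fold). In wild-type control 2, 6 were over 2-fold and 0 under 0.5-fold (median 1.44-fold).

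**Figure D4:**
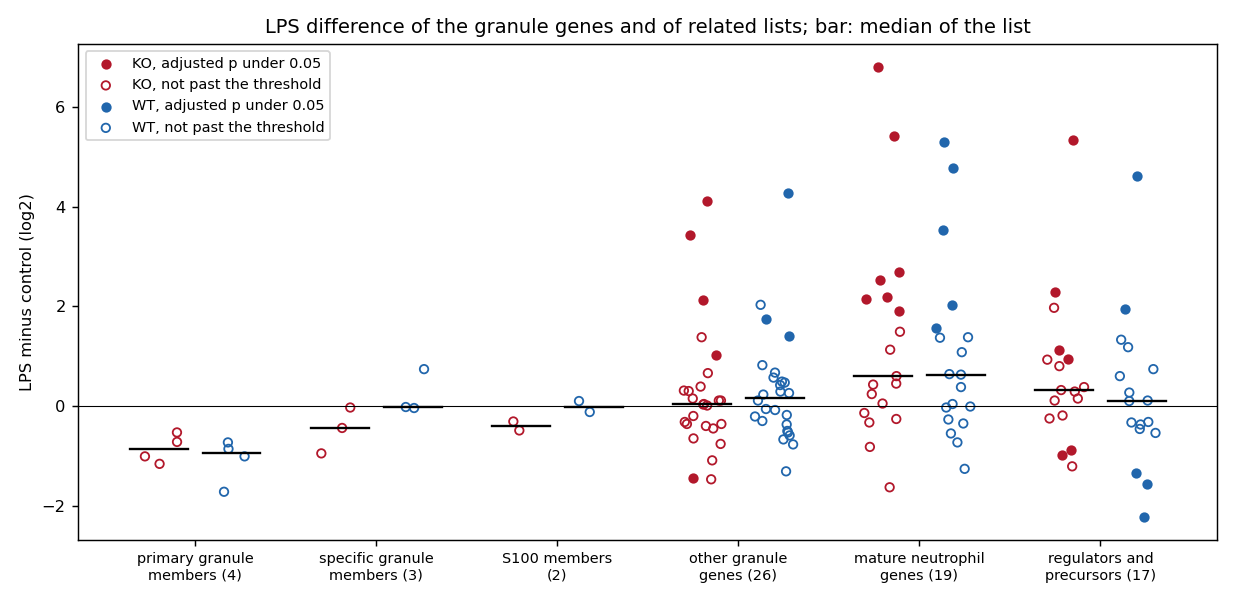
Difference between LPS and control arrays on the log2 scale (y axis) for each gene of 6 lists (x axis), knockout left and wild-type right within a list, with a bar at the list median. Filled points passed an adjusted p of 0.05: none of the 9 granule genes did, while other granule genes, mature neutrophil genes and regulators include rises of over 4.

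Some genes that direct granulocyte formation passed the test for LPS, in both directions. Of 17 measured regulators and precursor genes, 4 rose and 2 fell in knockout spleen and 2 rose and 3 fell in wild-type spleen, with medians of 0.32 and 0.10. Without the 2 high arrays 2 rose and 2 fell in knockout spleen, where the calls on Csf2 and on Irf8 (0.94 ± 0.26 with all arrays), a factor of monocyte formation, were lost, and 2 rose and 3 fell in wild-type spleen. Over all probe sets 12.7% passed in knockout and 6.59% in wild-type spleen with all arrays. Cebpe, the C/EBP factor of specific granules, had no probe set matched. Csf3, which encodes G-CSF, rose by 5.33 ± 0.31 in knockout and 4.61 ± 0.31 in wild-type spleen (limma adjusted p = 7.60e-06 and 3.62e-05). Cebpb, a C/EBP factor of emergency granulocyte production, rose by 2.28 ± 0.41 and 1.95 ± 0.41 (limma adjusted p = 0.00484 and 0.0178). Gfi1, a repressor needed for neutrophil maturation, gave 0.93 ± 0.40 and 1.18 ± 0.40 and did not pass in either genotype (limma adjusted p = 0.172 and 0.118), while its average of 1.05 ± 0.28 did (limma adjusted p = 0.0230). Cxcl12, which holds neutrophils and precursors in place, fell by 0.98 on the log2 scale (± 0.23) in knockout and 1.35 (± 0.23) in wild-type spleen, and Csf1r, the macrophage growth factor receptor gene, fell by 0.88 (± 0.20) and 1.56 (± 0.20) (limma adjusted p from 0.00146 to 0.0202 over the 4). With arrays shifted to 1 common median the call on Csf1r in knockout spleen was lost. Csf2, a growth factor gene of granulocytes and macrophages, rose in knockout spleen with all arrays (1.12 ± 0.28, limma adjusted p = 0.0260). Klf4, a factor of monocyte formation, fell in wild-type spleen (-2.23 ± 0.32, limma adjusted p = 0.00268) and was higher in knockout than in wild-type spleen after LPS (1.94 ± 0.32, limma adjusted p = 0.0406), a call that was lost without the 2 high arrays. Among 12 receptors of S100A8 and S100A9 and S100 relatives, 0 passed in either genotype (medians -0.34 and -0.64), and without the 2 high arrays 1 fell in knockout spleen (Ager, which encodes the receptor RAGE, -0.78, limma adjusted p = 0.0424). Ager read 34, 25 and 30 in knockout LPS arrays against 23, 50 and 51 in knockout controls. The summed lung list, which holds Ager, read 2289, 299 and 1390 against 207, 2745 and 2788 in the same arrays. The part of lung RNA in this fall was not tested. Tlr4, the receptor of LPS and of the released S100 pair, read 33, 34 and 43 in knockout LPS arrays against 56, 90 and 39 in knockout controls, and 34, 18 and 25 in wild-type LPS arrays against 46, 66 and 32 in wild-type controls. Of 13 eosinophil, basophil and mast cell granule genes, 1 rose in knockout spleen and 0 in wild-type spleen. The riser was Hdc, the histamine enzyme gene, which neutrophils and macrophages also use (2.11 ± 0.39 in knockout, limma adjusted p = 0.00547, and 1.33 ± 0.39 in wild-type spleen, limma adjusted p = 0.0699), and in wild-type spleen it passed too without the 2 high arrays and with each of 3 other scalings. Of 19 monocyte and macrophage genes 1 rose and 3 fell in knockout spleen, and 2 rose and 6 fell in wild-type spleen, and without the 2 high arrays 1 rose and 4 fell, and 3 rose and 5 fell. Of 23 cell cycle genes 0 rose and 2 fell in knockout spleen, where 1 fell without the 2 high arrays and 0 with arrays shifted to 1 median or with cyclic loess, and 0 changed in wild-type spleen. The pancreas, liver and lung lists had 0 calls in either genotype, of 13, 14 and 9 genes, and without the 2 high arrays the lung list had 1, Ager, which it shares with the S100 receptors.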

How the data were processed

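Expression was measured in spleen RNA of 12 mice, 1 array per mouse. Per the series' design text, the authors ran the rma algorithm of R's affy package (its version is not given in the sources used here). The deposited file holds rounded intensity values on a linear scale, and its arrays do not share 1 distribution. They were log2-transformed with no further scaling. Groups came from sample titles. Controls (64 probe sets) were left out. A gene takes its brightest probe set, and the platform annotation gave each of the 9 genes 1.

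limma 3.58.1 in R 4.3.3 fitted 4 group means to 22626 probe sets (8 residual and 2.722 prior degrees of freedom), with two-sided tests, Benjamini-Hochberg adjustment over all probe sets in each of 6 comparisons and a threshold of 0.05. The number of arrays limits the precision. The fit was tested on simulated data. The members and the 11 other gene lists (184 of 216 written entries measured) were chosen with earlier results of these data known. Named were the 9 genes, up to 4 called genes per list by size of difference, always Lcn2, Csf3r, Cxcr2, Cebpe and Gfi1, and the 5 genes most like each class by r. Epx, Cpa3, Padi4, Tlr4, Myb, Ms4a3, Cd34, Kit and Ager were chosen after their values were seen. Alternatives changed scaling, offset, filter, probe sets, variance model, weights, arrays and the replicate block.

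Same-numbered mice were not paired by the labels, and the deviations of same-numbered arrays from their group means correlated from -0.58 to 0.63.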

Additional observations from a re-analysis of the deposited data

How the results depend on the processing

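Over 23 alternative settings and 54 results on single genes, 2 of 1224 recomputed values passed the threshold, and both belong to the LPS response averaged over genotypes, which had 0 calls with the fit as reported. With array weights 1 of the 9 genes passed (Mpo, -1.46, adjusted p = 0.0442, where 15.8% of all probe sets were lower), and without knockout control 1 and wild-type control 2 together 1 passed (Ngp, 1.03, adjusted p = 0.0278), a setting chosen after seeing the data. For the other comparisons the count stayed at 0 in each setting. A further 102 values, not called in any setting, changed sign. The median over the 9 genes stayed within 1 SD between replicates (0.84) in each setting but 1. The exception was the difference of the LPS responses between genotypes, whose median was 0.54 without knockout control 1, against -0.38 with all arrays, and ran from -0.89 to 0.54 when 1 array was left out; the cause was not tested. With 1 array left out the median ran from -0.87 to -0.04 for LPS in knockout spleen, from -0.67 to 0.45 for LPS in wild-type spleen, from -0.70 to -0.12 for their average, from -0.56 to -0.20 for knockout against wild-type after LPS and from -0.79 to 0.54 in controls. With the replicate block, a fit that treats same-numbered mice as pairs, 0 of 9 genes passed in any comparison (Mpo averaged over genotypes, -1.44, adjusted p = 0.0974). Counts over all probe sets moved by more than 1.5 times in some settings. For the genotypes after LPS the 72 calls became 2063 with array weights, 0 with only the arrays compared, 19 with the replicate block, 43 without dim probe sets (0.317% of 13575 tested, against 0.318% of 22626), 46 with an intensity trend and 4 to 108 with 1 array left out (4 without wild-type LPS mouse 2). For LPS in wild-type spleen 1491 became 2912 with array weights and 565 to 1906 with 1 array left out (565 without wild-type LPS mouse 3). In knockout spleen 2869 became 1558 with only the arrays compared and 1485 to 3073 with 1 array left out (1485 without knockout LPS mouse 1), and the averaged 4480 became 2981 with 1 probe set per gene (24.1% of 12393 tested, against 19.8% of 22626). The 0 calls for the genotypes in controls and for the difference of responses became at most 1. With arrays shifted to 1 median the share of higher calls was 60.7% against 40.4% in knockout, 62.8% against 51.4% in wild-type spleen and 59.8% against 41.3% for their average. The labels pair no mice, and intensity near the array floor and 3 mice a group limit the precision.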
